A study of Mus musculus with 6 samples.

Results

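Goblet cells are the mucus-secreting cells of the intestinal lining. The 9 genes described here are grouped as goblet cell regulators and secretory factors. They were measured in cultured spheroids of CMT93, which is a cell line from a mouse colorectal carcinoma. The genes are Spdef, Creb3l1, Creb3l4, Foxa3, Ern2, Agr2, Fcgbp, Pigr and Bcas1. They were taken by gene symbol from 23399 genes of the count table. The set was chosen by the difference between vehicle and palmitate levels in these same libraries, so their differences are given as a description. Where calls on them are counted, the count stands beside the share of all genes called and serves as no test of the set. All 9 were in the table and all 9 passed the filter on low counts. The labels give the cells as wildtype. The 3 vehicle samples received ethanol and bovine serum albumin (BSA), and the other 3 received 200 µM palmitate, a saturated fatty acid, as its sodium salt in ethanol conjugated to BSA. Both arms were held for 1 week as a monolayer and 5 days as spheroids on soft agar with Matrigel, so the ethanol, the albumin and the matrix were common to all 6 samples. The labels do not say whether replicates were separate cultures, so any p-value rests on the spread among these 6 samples alone, and that spread may be technical.

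SPDEF is an ETS transcription factor that drives secretory progenitors to mature as goblet cells, and FOXA3 is a forkhead factor active in mucous epithelia. CREB3L1 and CREB3L4 are transcription factors held in the membrane of the endoplasmic reticulum (ER) until proteases of the Golgi release them, after which they switch on genes for secretion. ERN2, known as IRE1 beta, is the ER stress sensor of mucus-producing epithelia, and AGR2 is an ER disulfide isomerase needed to fold mucins. FCGBP is a large protein of the mucus layer, PIGR carries dimeric immunoglobulin A across the epithelium, and BCAS1 is a membrane-associated protein best known from myelinating cells of the brain that is also found in goblet cells.

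Libraries held 18898896 to 21851987 counts with vehicle and 22516639 to 22852940 with palmitate, so palmitate libraries were the deeper ones. Levels are given as CPM, a gene's counts scaled to a common library size after TMM normalisation. The 8 epithelial markers summed to between 7410 and 7490 CPM with vehicle and between 6800 and 6900 CPM with palmitate, none of them at 0. The fall of that sum was not shared by all 8, as edgeR called 3 lower and 3 higher. Krt8 fell from 1700 to 1440 CPM and Krt18 from 1450 to 1080 CPM, while Krt19, Cldn7 and Cdx2 rose. The defining markers of colonic goblet cells were sparse. Of 7 such markers 5 were in the table, and Tff3, Clca1 and Zg16 were below 1 CPM in both groups, with 0 to 4 counts per library for Tff3 and 2 to 8 for Clca1 and for Zg16. Muc2, the main colonic mucin, stood at 2.55 CPM with vehicle and 2.19 CPM with palmitate. The goblet marker sum of 18.0 to 19.3 CPM with vehicle and 7.52 to 9.01 CPM with palmitate came mostly from Spink4. The 9 genes are therefore called goblet cell genes here as a label only, which does not mean that they are confined to these cells. These markers do not show the spheroids to hold mature colonic goblet cells. Of 7 markers of enteroendocrine cells only 2, Pax6 and Insm1, were in the table, and Insm1 was low (1.51 CPM with vehicle, 3.6 CPM with palmitate). Both were higher with palmitate, their sum running from 26.1 to 27.2 CPM with vehicle and from 38.1 to 42.3 CPM with palmitate. The sum of stem cell markers, nearly all Lgr5 and Axin2, ran from 315 to 320 CPM with vehicle and from 431 to 434 CPM with palmitate. Of 6 absorptive markers in the table, all were below 1 CPM. The tuft cell sum was 19.6 to 20.8 CPM with vehicle and 24.7 to 25.1 CPM with palmitate, and the Paneth cell sum 9.10 to 11.2 and 10.4 to 10.9 CPM. Both sums join markers that moved in opposite directions (edgeR): Dclk1 rose from 12.8 to 23.3 CPM and Trpm5 fell from 6.63 to 0.710 CPM among tuft markers. Among Paneth markers Itln1, also counted among mucus products below, rose from 9.17 to 10.5 CPM (adjusted p = 0.0375 by edgeR). Its groups overlapped, and the call was lost under some other settings. Mmp7 fell from 0.855 to 0.0592 CPM, at 0 to 27 counts per library. Fibroblast, leukocyte and endothelial sums were at most 2.05, 10.7 and 2.82 CPM in any library. In the leukocyte sum Cd68 rose from 7.14 to 9.66 CPM, while Ptprc fell from 0.836 to 0.266 CPM. The part of these shifts in the results was not tested, and in bulk RNA fewer cells of a type and less RNA per cell cannot be told apart.

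The promoters of 3 of the genes are shown first: those of Spdef and Pigr, which were among the genes that differed most, and that of Foxa3, which differed least. Windows run from 250 bases before to 50 bases after a start site, 5′ to 3′ on the gene's strand, from RefSeq on GRCm38.p6, an earlier build than the mm39 of the counts. Capitals mark the letters ACGTG on either strand, the core of elements bound by CREB3-type and XBP1-type factors and, as CACGTG, of the E-box.
Spdef promoter, chr17:27728902-27729201, minus strand: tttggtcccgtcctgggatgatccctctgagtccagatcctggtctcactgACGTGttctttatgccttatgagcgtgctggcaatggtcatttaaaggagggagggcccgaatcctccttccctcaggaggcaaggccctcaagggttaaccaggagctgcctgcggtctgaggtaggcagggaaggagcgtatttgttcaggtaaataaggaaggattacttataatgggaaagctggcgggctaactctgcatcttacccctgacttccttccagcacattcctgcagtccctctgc
Pigr promoter, chr1:130826434-130826733, plus strand: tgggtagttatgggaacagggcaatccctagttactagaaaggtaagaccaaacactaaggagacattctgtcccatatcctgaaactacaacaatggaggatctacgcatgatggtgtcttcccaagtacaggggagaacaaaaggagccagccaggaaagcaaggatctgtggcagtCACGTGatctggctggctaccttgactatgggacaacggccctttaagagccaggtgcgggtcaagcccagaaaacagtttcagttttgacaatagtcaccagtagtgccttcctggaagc
Foxa3 promoter, chr7:19023490-19023789, minus strand: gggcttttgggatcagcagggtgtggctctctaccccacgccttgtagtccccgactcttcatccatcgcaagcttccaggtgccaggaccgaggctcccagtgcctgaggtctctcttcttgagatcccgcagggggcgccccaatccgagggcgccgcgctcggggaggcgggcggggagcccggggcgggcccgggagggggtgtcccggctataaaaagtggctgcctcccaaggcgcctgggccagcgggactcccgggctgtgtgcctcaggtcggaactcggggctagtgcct

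RefSeq windows were matched by symbol for 6 of the 9 genes (Spdef, Creb3l4, Foxa3, Agr2, Fcgbp and Pigr), 8 windows in all because Creb3l4 had 3. ACGTG was found in 2 of the 6 genes, both among those shown above. The windows of Creb3l4, Fcgbp and Agr2, not shown, held none. Each of these genes was also lower with palmitate, at 37.1%, 38.3% and 49.7% of its vehicle level. The windows shown therefore do not stand for all 6 genes. In Spdef it began 199 bases before the start. In Pigr its overlapping forward and reverse matches formed CACGTG from 71 bases before the start. The same letters occurred in 19.6% of all 32851 windows in the table, which cover 27025 genes. The shares given here are by window and the counts for the 6 are by gene. A gene with several windows, such as Creb3l4, has more chances to hold the letters, so the measures are not alike. CCACGTC, a fuller CREB3-type element, was in none of the 6 genes and in 2.42% of all windows. The forkhead letters TGTTTAC (3.65% of all windows), the SPDEF-type letters CCGGAT (6.04%) and the nuclear receptor element AGGTCA (16.3%) were likewise in none of the 6, on either strand. Each CCACGTC holds an ACGTG on the other strand, so the windows with the longer element are a subset of those with the shorter one. The Foxa3 window had 69.0% G and C, against 53.3% for Spdef, 49.0% for Pigr and a median of 52.7% over all windows.

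Spheroids grown with palmitate had less message for all 9 genes, and for 8 of them the level was at most 49.7% of that with vehicle. The greatest difference was in Creb3l1, at 18.2% of its vehicle level, followed by Pigr (26.9%), Ern2 (27.3%), Spdef (29.3%), Bcas1 (33.3%), Creb3l4 (37.1%), Fcgbp (38.3%) and Agr2 (49.7%). Foxa3 stood apart at 91.4%. The median log2 fold change over the 9 was -1.59, beside 0.00 over all 14987 tested genes. In the edgeR fit 9 of the 9 were called lower at an adjusted p under 0.05, where 52.8% of tested genes were called, 25.4% lower and 27.4% higher. All 3 palmitate libraries lay below all 3 vehicle libraries for 9 of the 9, as they did for 28.1% of tested genes. For 8 of the 9 the call came with a log2 fold change of -1 or lower, which held for 2.82% of tested genes. Against a minimum change of 1.2-fold (glmTreat), 8 of the 9 were called lower, and 8.72% of tested genes were. The contrast chose these genes, so nothing is read from those counts. Summed over the 9, the message was 193 to 197 CPM in the vehicle libraries and 90.7 to 94.2 CPM in the palmitate libraries, of which Foxa3 made up 23.5% to 24.8% and 46.2% to 47.6%.

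**Figure D1:**
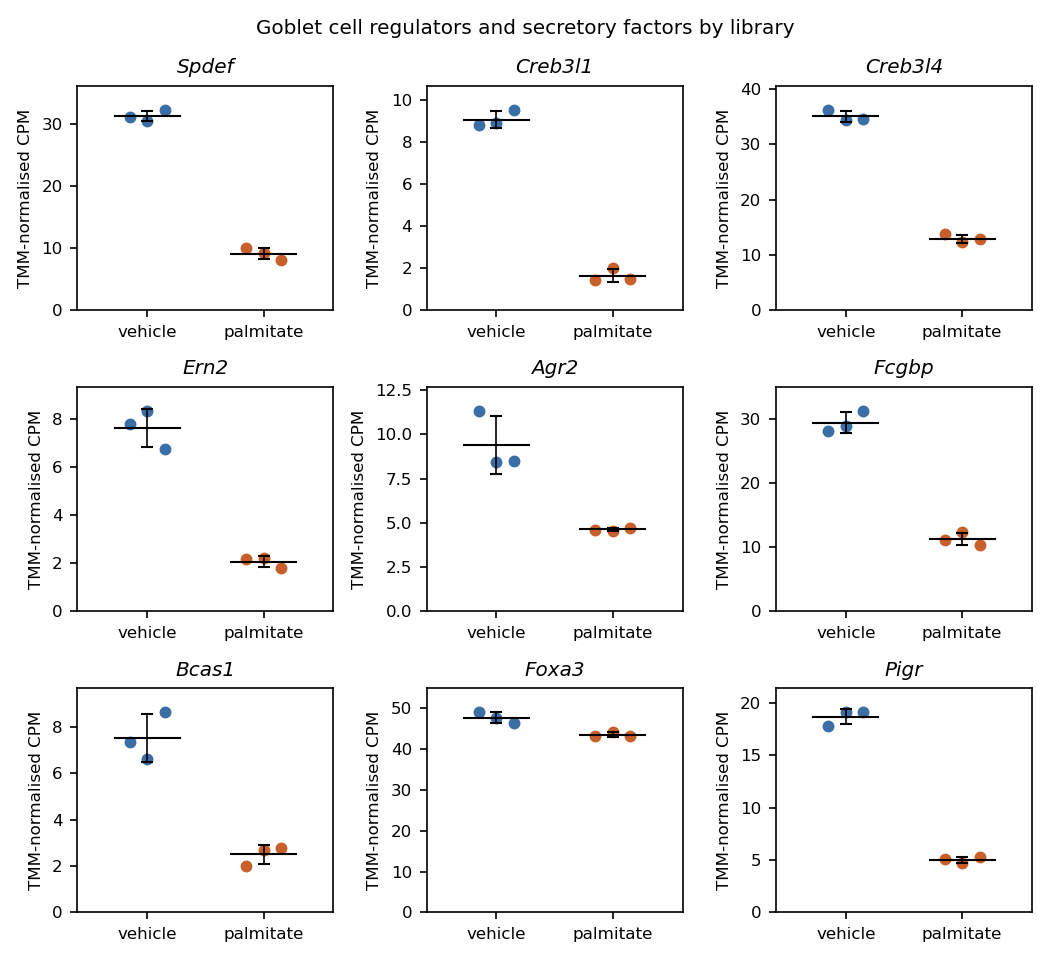
Each panel gives 1 gene in TMM-normalised CPM from 0, with a point for each of the 3 vehicle and 3 palmitate libraries, a line at the group mean and bars of 1 SD. The groups are apart in every panel, narrowly for Foxa3 with a gap of 2.14 CPM and widely for Creb3l4 with a gap of 20.6 CPM.

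Among the transcription factors, Spdef (ENSMUSG00000024215.15) measured 31.1, 30.6 and 32.3 CPM in vehicle replicates 1 to 3, and 10.1, 9.23 and 8.19 CPM in palmitate replicates 1 to 3. The lowest vehicle library stood 20.5 CPM above the highest palmitate library. The means were 31.3 ± 0.869 CPM with vehicle and 9.16 ± 0.940 CPM with palmitate (SD, n = 3 each), a log2 fold change of -1.77 (SE 0.0630), and 0.447% of tested genes had a lower one. Creb3l1 (ENSMUSG00000027230.10) was a low gene, with 167, 195 and 206 counts with vehicle and 32, 45 and 34 counts with palmitate. Those correspond to 8.80, 8.87 and 9.51 CPM with vehicle and to between 1.43 and 2.00 CPM with palmitate. Palmitate replicate 2 was the highest of its group, and the groups were still 6.80 CPM apart. Its log2 fold change of -2.46 (SE 0.131) was the lowest of the 9, with 0.107% of tested genes lower still.

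Creb3l4 (ENSMUSG00000027938.12), the relative of Creb3l1 that is also found in prostate and testis, measured 36.2, 34.4 and 34.6 CPM with vehicle and 13.7, 12.3 and 12.8 CPM with palmitate. Its libraries were among the tightest, with a coefficient of variation of 2.85% and 5.49% in the groups, and the log2 fold change was -1.43 (SE 0.0557). Foxa3 (ENSMUSG00000040891.7) measured 49.0, 47.6 and 46.3 CPM with vehicle and 43.1, 44.1 and 43.2 CPM with palmitate. The groups did not overlap but lay only 2.14 CPM apart. Its log2 fold change was -0.13 (SE 0.0394), and 29.6% of tested genes had a lower one. It was the gene of the 9 that glmTreat did not call. The authors' deposited table lists Foxa3 at -0.13 with a q of 0.0650, above 0.05, and the other 8 genes with a q under 0.05. Of all 23399 genes in the authors' deposited table, 10.9% were lower with a q under 0.05. That share includes genes too low to pass the count filter used here, so it is not comparable with the shares of tested genes. The log2 fold changes of the authors' deposited table differed from those of the edgeR fit by at most 0.0056 for any of the 9.

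The ER sensor Ern2 (ENSMUSG00000030866.9) measured 7.79, 8.33 and 6.74 CPM with vehicle and 2.19, 2.22 and 1.81 CPM with palmitate, from 41 to 183 counts per library. Replicate 3 was the lowest of each group, but the labels do not say whether equal replicate numbers mark paired samples. The log2 fold change was -1.88 (SE 0.131). Agr2 (ENSMUSG00000020581.12) measured 11.3, 8.42 and 8.49 CPM with vehicle and 4.61, 4.57 and 4.71 CPM with palmitate. Vehicle replicate 1 stood above the other vehicle libraries, and the palmitate libraries were nearly level. The log2 fold change was -1.01 (SE 0.105), and it was -0.87 without vehicle replicate 1.

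Of the secreted and membrane products, Pigr (ENSMUSG00000026417.14) measured 17.9, 19.2 and 19.1 CPM with vehicle and 5.10, 4.70 and 5.28 CPM with palmitate. The libraries of each group lay close together, and the groups were 12.6 CPM apart. Its log2 fold change was -1.90 (SE 0.0812). Fcgbp (ENSMUSG00000047730.18) measured 28.1, 28.8 and 31.2 CPM with vehicle and 11.1, 12.3 and 10.4 CPM with palmitate, a log2 fold change of -1.38 (SE 0.0615). Bcas1 (ENSMUSG00000013523.14) measured 7.32, 6.60 and 8.63 CPM with vehicle and 2.01, 2.71 and 2.77 CPM with palmitate, with a log2 fold change of -1.59 (SE 0.129). Antisense transcripts overlap exons of Bcas1 in GENCODE M21, an annotation of the earlier build. The strand setting of the counting was not stated in the labels or files, so reads of the opposite strand cannot be told apart and the Bcas1 value is uncertain.

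**Figure D2:**
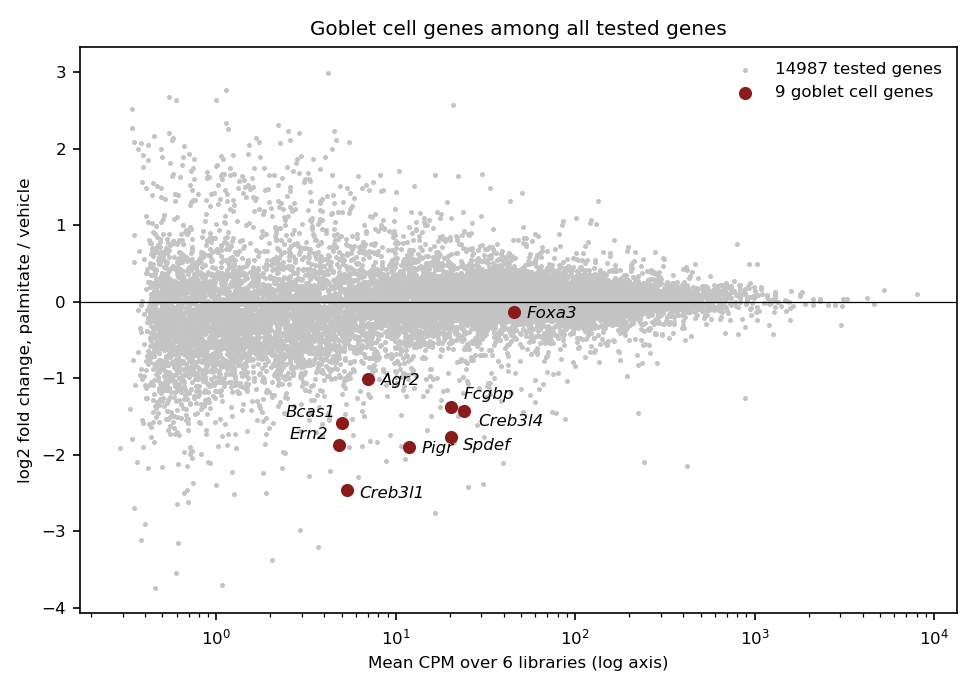
Mean CPM over 6 libraries (log axis) is set against the log2 fold change of palmitate over vehicle for 14987 tested genes in grey, with the 9 goblet cell genes in red. Foxa3, the most abundant of the 9 by CPM, lies near 0 within the grey band, and the other 8 lie at -1.01 or lower.

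The order of the levels was compared after division by the exon length of each gene in GENCODE M21, as CPM per kb. With vehicle it ran Foxa3 (23.4), Creb3l4 (20.9), Spdef (13.6), Agr2 (7.29), Pigr (4.65), Creb3l1 (3.48), Fcgbp (2.80), Ern2 (2.57) and Bcas1 (1.99). Neighbours in that order did not overlap between libraries, except Fcgbp with Ern2 and Ern2 with Bcas1. With palmitate it ran Foxa3 (21.3), Creb3l4 (7.72), Spdef (3.98), Agr2 (3.59), Pigr (1.25), Fcgbp (1.07), Ern2 (0.699), Bcas1 (0.662) and Creb3l1 (0.631). There the libraries overlapped between Spdef and Agr2, between Pigr and Fcgbp, and along the last 3 genes. Creb3l1 thus went from the sixth place to the last, a place it shared within the spread with Ern2 and Bcas1. Per kb, 68.7% of all tested genes were counted below Spdef with vehicle and 37.6% with palmitate, while Foxa3 stayed above 80.6% and 78.6% of them. Only 96.4% of tested genes had an exon length, and those without one were counted as not below, so these shares are slightly low.

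The spread between libraries of a group was close to what counting gives. In 18 pairs of gene and group, the observed coefficient of variation exceeded the counting value in 8. Agr2 with vehicle had the greatest excess, 17.6% observed beside 7.19% from counting, and vehicle replicate 1 was the high library. Creb3l1 with palmitate varied by 18.8%, where its 32 to 45 counts give 16.6%. Foxa3 varied by 2.87% with vehicle and 1.29% with palmitate, and its group means differed by more than that.

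**Figure D3:**
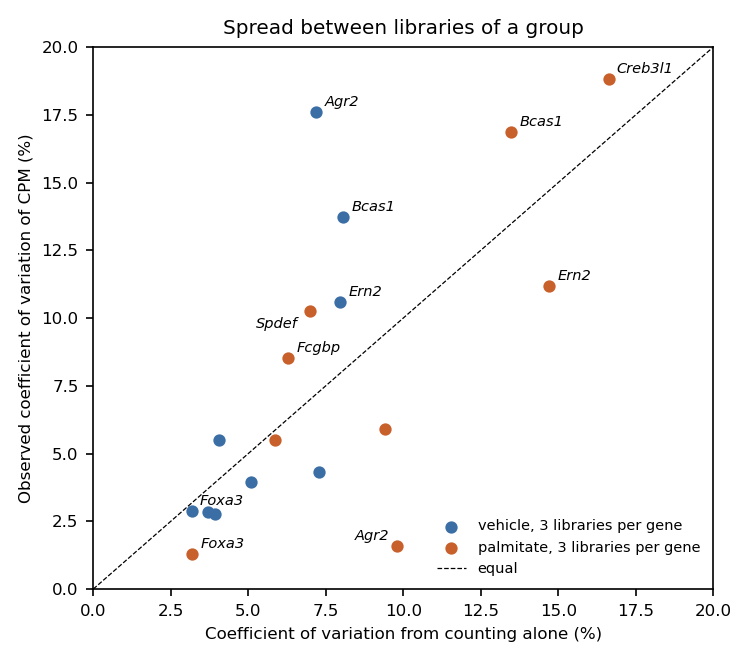
The observed coefficient of variation of CPM between 3 libraries is set against the one counting alone gives, both in percent, with blue points for vehicle and orange points for palmitate. Of the 18 points 8 lie above the dashed line of equality, and Agr2 with vehicle lies well above it at 17.6%.

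By profile over the 6 libraries, the closest pairs among the 9 were Creb3l4 with Fcgbp, Spdef with Ern2 and Spdef with Pigr, whose centred log2 CPM differed by a root mean square of 0.12, 0.124 and 0.131. The farthest pair was Creb3l1 with Foxa3, at 1.15. Among 10708 other genes of at least 5 CPM, the profiles most like Spdef were those of Fat2, Rasa4 and Gbp2 (0.0716, 0.0762 and 0.0764). For Creb3l4 they were Sparc, Kit and Cracr2a (0.0470, 0.0499 and 0.0503), and for Fcgbp they were Agt, Kit and Rap1gap (0.0887, 0.0892 and 0.0921). Foxa3 was most like Axl, Cdk2ap1 and Prdx5 (0.00454, 0.00758 and 0.00786). These distances are descriptions over 6 libraries of 2 groups and are set mainly by the size of the group difference.

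Relatives of the 9 genes were named after their values had been seen. Ern1, the IRE1 alpha sensor present in most cells, had 135 ± 1.93 CPM with vehicle and 133 ± 2.77 CPM with palmitate (SD, n = 3 each; -0.02 ± 0.0245 SE as log2 fold change, adjusted p = 0.549 by edgeR), and its groups overlapped. Per kb, Ern2 stood at 14.0% to 16.8% of Ern1 in the vehicle libraries and at 3.65% to 4.64% in the palmitate libraries. Creb3l2, another ER-bound factor of secretory cells, fell from 220 ± 1.18 to 162 ± 1.82 CPM (SD, n = 3 each; -0.44 ± 0.0213 SE as log2 fold change, adjusted p = 1.17e-32 by edgeR), lower in 3 of 3 palmitate libraries. Creb3l1 was 11.2% to 12.1% of Creb3l2 per kb with vehicle and 2.46% to 3.44% with palmitate. Creb3l4 was 68.2% to 71.3% and then 33.0% to 36.6%. The groups overlapped for Creb3, at -0.03 on the log2 scale (adjusted p = 0.675, edgeR). Foxa1 fell by 0.14 on the log2 scale and Foxa2 rose by 0.30 (adjusted p = 1.90e-08 and 4.99e-05, edgeR), each with all 3 palmitate libraries on one side of the vehicle libraries. The ratio of Foxa3 to Foxa1 per kb was 37.6% to 41.2% with vehicle and 38.9% to 39.9% with palmitate, so the groups overlapped. Spdef was 11.4% to 12.2% of Ehf, another epithelial ETS factor, with vehicle and 2.72% to 3.30% with palmitate.

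**Figure D4:**
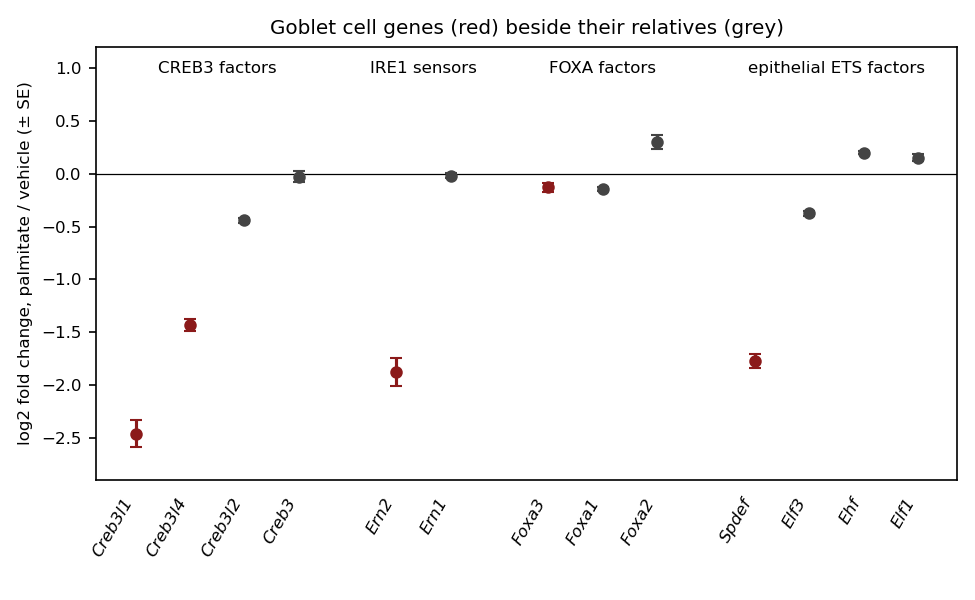
Points give the log2 fold change of palmitate over vehicle with bars of 1 SE, red for the goblet cell genes and grey for relatives of the same family. Creb3l1, Creb3l4, Ern2 and Spdef lie at -1.43 or lower, while each grey point lies between -0.44 and 0.30.

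Other genes of the same pathways were read from 6 lists of 129 genes, of which 108 were tested. The edgeR fit called 26 of them higher and 51 lower and left 31 uncalled, with a median log2 fold change of -0.06. Over all tested genes 27.4% were called higher and 25.4% lower, and each list's shares are given beside those. A fall to a log2 fold change of -1 or lower was seen in 3 of them, Muc5ac, Muc5b and Spink4. For other regulators of secretory and goblet cell fate, 16 of 20 genes were in the table and 14 were tested. Of these 7 rose, 4 fell and 3 did not pass the test (50.0% higher and 28.6% lower), with a median of 0.05. Elf3, an epithelial ETS factor, fell from 137 ± 2.12 to 105 ± 0.180 CPM (SD, n = 3 each; -0.38 ± 0.0254 SE as log2 fold change, adjusted p = 2.14e-23 by edgeR). Notch1, a receptor of the Notch pathway, rose from a mean of 36.2 CPM (highest library 37.7) to a mean of 54.0 CPM (lowest library 52.7), by 0.57 ± 0.0402 SE on the log2 scale (adjusted p = 1.72e-22, edgeR). Ehf rose by 0.20 (adjusted p = 2.96e-19, edgeR), a call lost against the 1.2-fold minimum of glmTreat. Hes1, a target of Notch signalling named after its value was seen, fell from 71.6 ± 1.38 to 65.0 ± 1.36 CPM (SD, n = 3 each), by 0.14 on the log2 scale (adjusted p = 0.000165, edgeR). For these 4 genes no palmitate library overlapped the vehicle libraries, as for 28.1% of tested genes in the lower direction alone.

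Goblet cell granule and mucus products were the list with the lowest median, -0.62. Of 20 genes 16 were in the table and 7 were tested: 1 rose, 5 fell and 1, Muc2, did not pass the test (14.3% higher and 71.4% lower). The gel-forming mucins Muc5ac and Muc5b fell by 2.15 and 2.10 on the log2 scale (adjusted p = 1.92e-68 and 9.03e-82, edgeR), from 686 ± 14.3 to 155 ± 6.67 CPM and from 393 ± 10.5 to 91.8 ± 0.297 CPM (SD, n = 3 each). Muc2 stood at -0.20 on the log2 scale (SE 0.170; adjusted p = 0.323 by edgeR), and its groups overlapped. Spink4, a protease inhibitor of goblet cells, measured 15.3, 16.4 and 15.4 CPM with vehicle and 4.88, 6.26 and 5.64 CPM with palmitate. It fell by 1.49 on the log2 scale (SE 0.0843, adjusted p = 5.12e-28, edgeR), lower in 3 of 3 palmitate libraries. The gene that rose was Itln1, an intelectin, named after its value was seen, by 0.20 (adjusted p = 0.0375, edgeR) with overlapping groups. Its call was lost with DESeq2, with glmTreat and on leaving out any 1 of 4 libraries: palmitate replicate 1, palmitate replicate 3, vehicle replicate 1 or vehicle replicate 2.

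**Figure D5:**
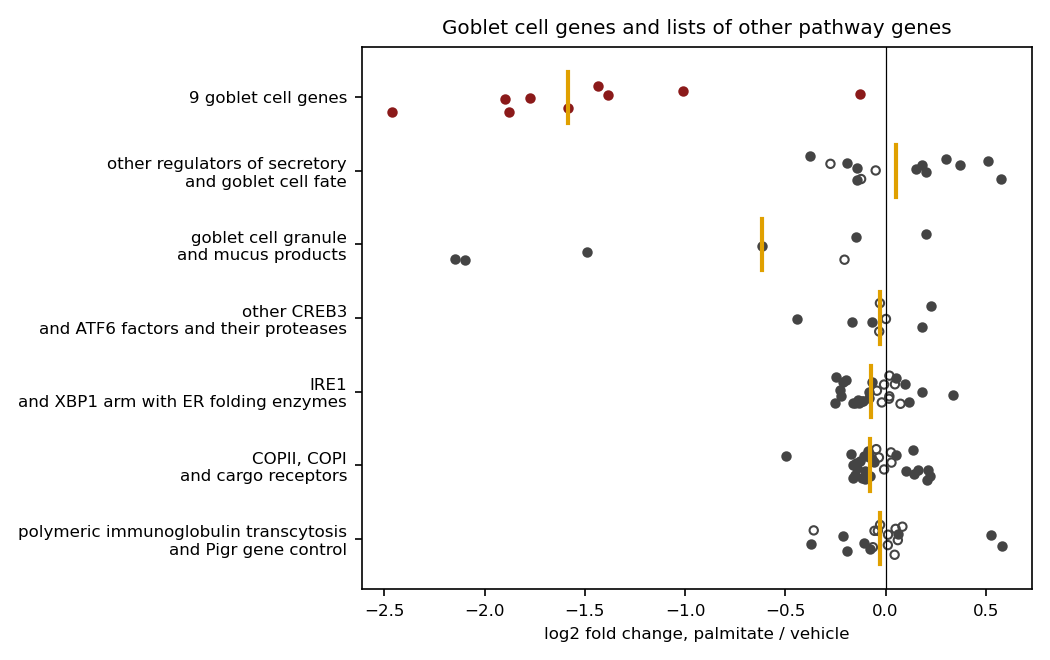
Each point is a gene's log2 fold change of palmitate over vehicle, in red for the 9 goblet cell genes and in grey for 6 lists of other genes, filled where called at an adjusted p under 0.05 (edgeR) and open otherwise, with a yellow bar at the median. The 9 genes have a median of -1.59 and the mucus products one of -0.62, while the other 5 lists centre between -0.08 and 0.05.

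In the general secretory machinery more genes fell than rose, by small amounts. For the IRE1 and XBP1 arm with ER folding enzymes, 5 of 28 tested genes rose, 15 fell and 8 did not pass the test (17.9% higher and 53.6% lower), with a median log2 fold change of -0.07 and a range from -0.25 to 0.34. Dnajc10 (-0.23), Dnajc3 (-0.25) and Txndc12 (-0.22), which serve folding in the ER, fell (adjusted p = 2.45e-16, 7.12e-14 and 1.93e-12, edgeR). P4hb, a disulfide isomerase and the most abundant gene of the list, had 1292 ± 3.11 CPM with vehicle and 1309 ± 3.82 CPM with palmitate (SD, n = 3 each; adjusted p = 0.267, edgeR). For COPII and COPI coats and cargo receptors, which carry proteins between the ER and the Golgi, 8 of 32 tested genes rose, 19 fell and 5 did not pass the test (25.0% higher and 59.4% lower), with a median of -0.08. Arfgap3, a regulator of coat release, fell by 0.50, Sec31a of the outer COPII coat fell by 0.15, Mia2, a receptor for bulky cargo, rose by 0.21, and Arf1 rose by 0.05 (adjusted p = 1.30e-24, 1.32e-12, 5.42e-14 and 0.00572, edgeR). The list of other CREB3 and ATF6 factors and their proteases also held Atf4 and Creb1, which belong to neither family. Of its 8 tested genes 2 rose, Atf4 among them. Another 3 fell, among them Creb1, named after its value was seen (-0.07, adjusted p = 0.0499 by edgeR). The remaining 3 did not pass the test (25.0% higher and 37.5% lower), and the median was -0.03. Mbtps1, the protease that makes the first cut in such factors, fell by 0.17 and Atf4 rose by 0.23 (adjusted p = 3.20e-13 and 1.59e-16, edgeR). Apart from Creb1, 10 genes are named in this paragraph, and Arfgap3 alone of these 10 was called against the 1.2-fold minimum of glmTreat. For each of the 10 the palmitate libraries did not overlap the vehicle libraries, which is a description only. In the lower direction alone that held for 28.1% of tested genes, and P4hb was not called.

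Around Pigr, the list of transcytosis genes and of factors that act on the Pigr gene had 3 of 19 tested genes that rose, 5 that fell and 11 that did not pass the test (15.8% higher and 26.3% lower), with a median of -0.03. Myo5b, a motor for apical recycling vesicles, rose from 69.9 ± 0.989 to 100.5 ± 0.813 CPM (SD, n = 3 each; 0.52 ± 0.0299 SE as log2 fold change, adjusted p = 7.36e-28 by edgeR). Rab3b, a vesicle GTPase that binds the receptor PIGR, rose by 0.58 (adjusted p = 2.00e-10, edgeR). Ifngr1, a chain of the interferon gamma receptor, fell by 0.37, and Nfkb1 fell by 0.08 (adjusted p = 4.88e-10 and 0.00109, edgeR). In these 4 genes the groups did not overlap, as for 28.1% of tested genes in the lower direction alone. The call of Nfkb1 was lost with glmTreat.

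The nearest tested genes on each side of the 9 on the chromosome, by RefSeq gene order, were also read, 18 in all. The edgeR fit called 4 of them higher and 2 lower and left 12 uncalled, where 27.4% and 25.4% of all tested genes were called, with log2 fold changes from -0.22 to 0.71 and a median of -0.02. Spdef on chromosome 17 lay between Rps10 (-0.11) and Ilrun (-0.02), and Creb3l4 on chromosome 3 between Jtb (-0.07) and Slc39a1 (-0.06). On chromosome 2 Creb3l1 lay between Dgkz (0.15) and Phf21a (-0.05), and on chromosome 1 Pigr lay between AA986860 (-0.10) and Il24 (-0.22). Il24, the low end of that range, had only 1.33 CPM with vehicle and 1.14 CPM with palmitate and was not called (adjusted p = 0.447, edgeR). Ern2 on chromosome 7 lay between Plk1 (0.00) and Rbbp6 (-0.03). Agr2 on chromosome 12 lay beside Ahr, the aryl hydrocarbon receptor, which rose from 148 ± 0.427 to 243 ± 3.80 CPM (SD, n = 3 each; 0.71 ± 0.0214 SE as log2 fold change, adjusted p = 5.71e-47 by edgeR), and beside Tspan13, which rose by 0.19 (adjusted p = 1.47e-08, edgeR).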

How the data were processed

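The authors deposited raw counts per gene from polyadenylated RNA of 6 libraries, prepared with strand-specific chemistry according to the labels' protocols. FastQC 0.11.8, STAR 2.6.1, HTSeq (no version) and DESeq2 1.34.0 with build mm39 are named in the submitters' processing notes. A second table that the authors deposited holds log2 fold changes of palmitate over vehicle, p-values with q-values, and a ranking score built from the p-value and its sign. The score was not used further.

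The count test was that of edgeR 4.0.16, run in R 4.3.3 (TMM, filterByExpr with a minimum count of 10, robust glmQLFit and glmQLFTest, two-sided, Benjamini-Hochberg over 14987 genes, threshold 0.05). CPM values are TMM-normalised, log2 CPM used a prior count of 2, and the SE is the log2 fold change over the root of F. Scripts were tested on simulated data. Settings tried instead were no filter, size factors by median of ratios, DESeq2 1.42.0, limma 3.58.1 (voom), glmTreat, thinning, the replicate number as a block, and leaving out each library. Between 2 libraries of a group, the variance averaged over genes of at least 20 summed counts was at most 1.38 times that of counting. Single genes could exceed that average. Exon lengths matched 96.4% of tested genes. Figures used matplotlib 3.10.9 in Python 3.11.15.

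The 9 genes and the lists were chosen with earlier results of these data known. In each list, up to 3 called genes of smallest p and the most abundant gene were named, besides chromosomal neighbours and, for the 4 most abundant of the 9, the 3 most similar profiles. Genes named for a small p tend to have groups that do not overlap, so that remark on them is a description only.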

Additional observations from a re-analysis of the deposited data

How the results depend on the processing

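Counts of 32 to 1046 per library lie behind the 9 genes, so counting error is largest for Creb3l1, Ern2 and Bcas1 with palmitate. The 9 genes were chosen on these libraries, so their calls under other settings say nothing of stability. The median of the 9 log2 fold change was -1.59, and ran from -1.68 to -1.47 when each library was left out in turn. Fewer genes pass a test against a minimum change of 1.2-fold by its construction: glmTreat called 2275 genes (15.2% of those tested), 968 higher and 1307 lower. In the lists it called 3 regulators of secretory fate, 1 CREB3 or ATF6 factor or protease, 0 genes of the IRE1 and XBP1 arm, 1 coat or cargo receptor gene, 3 genes around Pigr and 4 mucus products, all 4 lower. Without a count filter 8023 genes were called, with limma-voom 7894 and with DESeq2 5899. The labels do not say whether same-numbered libraries of the groups were paired. Correlations of their deviations from the group means were -0.00448, 0.00846 and 0.00715. The spread within groups was close to counting noise, so these correlations cannot settle whether pairing existed. With the replicate number as a block, 7933 genes were called, and the median of the 9 was -1.58.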
